A study of Mus musculus with 6 samples.

Results

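The myelin and mature oligodendrocyte genes described here are 9 genes named by symbol: Mbp, Mobp, Mal, Cnp, Cldn11, Opalin, Mag, Mog and Ermn. All 9 were found in all 6 libraries, among 35049 genes counted in the captured libraries and 37991 in the punched libraries, and all 9 had at least 20 reads in every library. The genes were listed by symbol and not by their values, and each gene identifier was the same in both kinds of library and in the reference annotation. On GRCm38 (GENCODE M21), Mobp spans chr9:120149707-120181484, Mal chr2:127633226-127656695, Cnp chr11:100574904-100591729, Cldn11 chr3:31149920-31164324, Opalin chr19:41061710-41077113, Mag chr7:30899176-30914873, Mog chr17:37010743-37023398 and Ermn chr2:58045113-58052864.

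RNA was sequenced from the mouse substantia nigra pars compacta (SNpc), with 6 groups of 1 library each that form 3 pairs. The wild type captured and En1+/- captured libraries came from mice of 6 weeks that differ in 1 copy of the homeobox gene En1. The deposited table of that pair names the allele En1LacZ. The contralateral captured and En2 infused captured libraries came from the opposite side and the infused side of wild type mice of 8 weeks that carried an osmotic pump delivering En2 protein for 7 days. In these 4 libraries, dopaminergic neurons had been stained for tyrosine hydroxylase and cut out by laser capture. The 6-OHDA punched and 6-OHDA then En2 punched libraries came from wild type mice of 8 weeks, all injected with 6-hydroxydopamine (6-OHDA), a toxin that dopaminergic neurons take up. After 30 min they received 2 µl of either 0.9% NaCl or 300 ng of bacterially made recombinant En2 (4 µM) with 3 µg of colominic acid, and the tissue was a 1 mm punch from a 2 mm slice. The labels do not say how many animals stand behind a library, and the tables deposited for the infusion pair carry En1 in their names where the labels say En2. With 1 library per group nothing could be tested, so every interval below covers counting error only and no difference has a replicate check.

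Myelin is the multilayered membrane that oligodendrocytes wrap around axons in the central nervous system. Its compact layers are held together by basic proteins such as MBP and MOBP. CNP, CLDN11 and OPALIN belong to channels, junctions and loops of the sheath, MAG faces the axon, MOG faces outward, and ermin binds the actin cytoskeleton. Mbp and Mobp messenger RNAs are carried along oligodendrocyte processes to the sheath, so they occur in tissue away from oligodendrocyte cell bodies. Mature oligodendrocytes are the main source of these proteins in the brain, and the SNpc lies among myelinated fibres.

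Promoter windows of 250 bases before to 50 bases after the gene start (RefSeq, GRCm38.p6) were held for 8 members, in 10 windows. They were searched on both strands for 6 motifs. ACAAAG is a motif of SOX factors, as is the variant spelled AACAAT. The MYRF motif was searched as CTGGCAC and in the variant spelled CTGGTAC. The TATA box was searched as TATAAA. The sixth motif was TAATTA, a core bound by many homeodomain proteins including Engrailed. SOX10 and MYRF are transcription factors that oligodendrocytes need to express myelin genes. The windows of Opalin (chr19:41077064-41077363, minus strand), Cldn11 (chr3:31149670-31149969, plus strand) and Ermn (chr2:58052815-58053114, minus strand) are shown because these genes departed most from the rest in the En1+/- pair. That of Mobp (chr9:120149492-120149791, plus strand) is shown as a gene that stayed near the group. Capitals mark matches to the motifs, on either strand.
Opalin: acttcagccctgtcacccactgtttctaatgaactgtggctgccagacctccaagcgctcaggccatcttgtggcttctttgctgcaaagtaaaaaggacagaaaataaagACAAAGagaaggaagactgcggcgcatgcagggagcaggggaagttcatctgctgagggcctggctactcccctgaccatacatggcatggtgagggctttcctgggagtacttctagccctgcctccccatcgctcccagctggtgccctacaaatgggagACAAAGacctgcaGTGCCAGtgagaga
Cldn11: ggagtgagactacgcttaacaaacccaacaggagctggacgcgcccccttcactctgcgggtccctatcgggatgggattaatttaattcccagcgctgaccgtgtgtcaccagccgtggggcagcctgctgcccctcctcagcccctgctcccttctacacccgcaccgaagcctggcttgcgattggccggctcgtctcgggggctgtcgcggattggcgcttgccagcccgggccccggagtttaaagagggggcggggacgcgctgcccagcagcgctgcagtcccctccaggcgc
Ermn: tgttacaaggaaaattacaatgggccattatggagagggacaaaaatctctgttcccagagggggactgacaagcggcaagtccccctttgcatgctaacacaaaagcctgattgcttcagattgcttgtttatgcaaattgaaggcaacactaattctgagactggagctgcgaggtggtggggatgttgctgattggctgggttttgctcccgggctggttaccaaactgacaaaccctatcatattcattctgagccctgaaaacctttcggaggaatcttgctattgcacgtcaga
Mobp: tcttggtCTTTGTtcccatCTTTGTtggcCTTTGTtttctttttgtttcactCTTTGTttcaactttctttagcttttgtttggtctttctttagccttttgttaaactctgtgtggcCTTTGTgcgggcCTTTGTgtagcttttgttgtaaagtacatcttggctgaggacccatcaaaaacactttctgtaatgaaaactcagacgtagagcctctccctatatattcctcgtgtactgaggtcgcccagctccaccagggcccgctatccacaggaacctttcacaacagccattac

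The Opalin window held ACAAAG at 2 places and CTGGCAC after the start, on the strand opposite to the one printed. The Mobp window held 6 matches to ACAAAG, all on the strand opposite to the one printed and all before the start. The Cldn11 and Ermn windows held none of the 6 motifs, and neither did that of Mal. Across members, ACAAAG stood in 5 of 10 windows (of Mag, Mobp, Cnp and Opalin) against 18.7% of 32851 windows in the table, and CTGGCAC stood in 4 of 10 (of Mag, Cnp and Opalin) against 5.01%. Overlapping windows of Mag were counted separately. CTGGTAC stood in 1 of 10, that of Mog, against 2.24%. The SOX variant AACAAT was in none of the 10 member windows, against 10.7% of all windows. The same held for the TATA box (13.6% of all windows) and for the homeodomain core TAATTA (5.29%). The GC content was 66.3% in the Cldn11 window and 43.3% in that of Mobp, beside a median of 52.7% over all windows. A match is a description of the letters and not a bound site.

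Depth differed between the kinds of library. Counts over transcripts summed to between 16145262 and 21332308 in the captured libraries, of which 58.5% to 74.4% were mitochondrial ribosomal RNA, and counts over genes summed to 15927206 and 19044672 in the punched libraries. Levels are therefore given as CPM, read counts scaled to a common total over all genes other than mitochondrial and ribosomal RNA genes, a base of 1510189 to 3272409 reads in the captured libraries. Captured values other than those per kilobase are reads of each gene's most-read transcript, and punched values are reads of the gene. Values were therefore compared only within a kind. In the En1+/- pair the targeted gene En1 had 77 reads in wild type and 47 in En1+/-, a log2 ratio of -1.70 (-2.27 to -1.17).

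The most abundant of the 9 genes stood near the top of every library, including those of captured neurons, while Opalin ranked between 1879 and 8739 by reads. Together the 9 took 2.19% of the reads outside mitochondrial and ribosomal RNA in wild type captured, 1.87% in En1+/-, 1.54% contralateral and 1.50% on the infused side. They took 2.16% in 6-OHDA punched and 1.71% in 6-OHDA then En2 punched. Mbp ranked first or second by reads among all genes in every library, and Mobp ranked between 5 and 7. In the same captured libraries the summed level of 10 dopaminergic markers lay between 7622 and 9964 CPM, below the 14990 to 21902 CPM of the 9 myelin genes. In the punched libraries the dopaminergic sums were 453 and 603 CPM, beside myelin sums of 21585 and 17141 CPM. These sums stand side by side without a ratio, since the kinds of library were counted differently and the punched mice had received 6-OHDA. In RNA of mixed tissue, fewer cells of a type and less RNA per cell cannot be told apart.

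**Figure D1:**
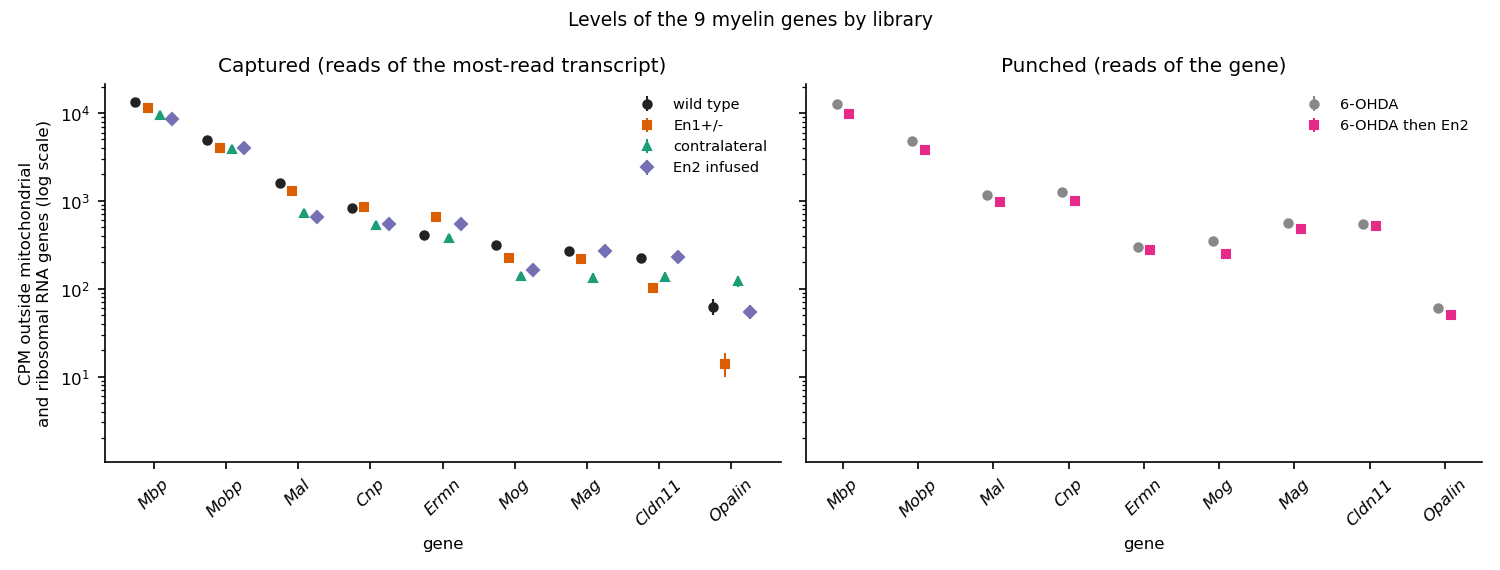
Level of each of the 9 genes in each library, as CPM outside mitochondrial and ribosomal RNA genes on a log axis, with captured libraries at left and punched at right. Bars are 95% counting intervals, mostly smaller than the symbols. Mbp lies at 8508 to 13290 CPM and Opalin spreads most, from 13.8 to 122 CPM among the captured libraries.

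Among the compact myelin genes, Mbp, whose protein seals the inner faces of the membrane, had 20070 reads in wild type captured, 37154 in En1+/-, 17958 contralateral and 19643 infused. These are 13290, 11354, 9409 and 8508 CPM, highest in wild type and lowest on the infused side. In the punches Mbp had 199536 reads after 6-OHDA and 187108 after 6-OHDA then En2 (12528 and 9825 CPM). Mobp, a smaller basic protein of compact myelin, stood at 4927, 3959, 3855 and 4026 CPM in the same order of captured libraries and at 4783 and 3804 CPM in the punches. Wild type was highest among captured libraries, and the other 3 lay close together. Mal, a proteolipid that sorts membrane proteins to the sheath, stood at 1589, 1309, 728 and 654 CPM captured and 1180 and 960 CPM punched. The 2 libraries from 6-week mice were higher in Mal than the 2 from 8-week mice, which had also carried a pump, so age and pump cannot be told apart.

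Among genes of the non-compact sheath and its junctions, Cnp, a phosphodiesterase of the cytoplasmic channels, had 823, 856, 530 and 540 CPM captured and 1278 and 985 CPM punched. As for Mal, both 6-week libraries were above both 8-week captured libraries. Cldn11, the claudin of the tight junctions between myelin layers, had 340, 331, 261 and 533 reads captured, which are 225, 101, 137 and 231 CPM. It was lowest in En1+/- and highest on the infused side, where its interval (212 to 251 CPM) overlapped that of wild type (202 to 250). In the punches Cldn11 had 546 and 519 CPM. Opalin, a transmembrane glycoprotein of oligodendrocytes found in the paranodal loops, had 94, 45, 232 and 125 reads captured. These are 62.2, 13.8, 122 and 54.1 CPM, so contralateral was highest, En1+/- lowest, and the intervals of wild type (50.3 to 76.2) and infused (45.1 to 64.5) overlapped. In the punches it had 971 and 952 reads (61.0 and 50.0 CPM).

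Among the surface and cytoskeletal genes, Mag, the sialic acid-binding adhesion protein next to the axon, had 405, 718, 254 and 628 reads captured, which are 268, 219, 133 and 272 CPM. Contralateral was the low library, and wild type (243 to 296 CPM) and infused (251 to 294) overlapped. Mag had 562 and 474 CPM in the punches. Mog, an immunoglobulin-like protein of the outer surface and a target of autoantibodies in demyelinating disease, had 313, 225, 139 and 162 CPM captured and 345 and 249 CPM punched. Both 8-week captured libraries were below both 6-week ones. Ermn had 611, 2121, 722 and 1253 reads captured, which are 405, 648, 378 and 543 CPM, and 302 and 276 CPM punched. En1+/- and infused were the high libraries for Ermn, while wild type (373 to 438 CPM) and contralateral (351 to 407) overlapped.

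Per kilobase of annotated length, the order of levels began the same way in all 6 libraries: Mbp, then Mobp, then Mal, each above the next beyond its counting interval. In wild type captured these levels were 5288, 1889 and 572 CPM per kb. Cnp came next with 283 CPM per kb, and it was in the fourth place in 5 of 6 libraries. In 6-OHDA then En2 punched Cldn11 (278 CPM per kb) and Cnp (271) had overlapping intervals. The order below Cnp varied, and in wild type captured Cldn11 (120), Mag (111) and Ermn (111) did not differ beyond counting error. Opalin was last in 5 of 6 libraries, at 7.48 to 33.8 CPM per kb, and on the contralateral side it stood at 66.1, between Cldn11 (73.1) and Mag (55.0) with overlapping intervals. Lengths came from GENCODE M21 and may not be those the authors counted over: an Mbp transcript of 531 bases was listed with 20070 reads in wild type and one of 2070 bases with 20055.

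The composition of the group was dominated by Mbp and Mobp in every library. Mbp took 60.7%, 60.8%, 61.0% and 56.8% of the 9 genes' reads in wild type, En1+/-, contralateral and infused captured, and 58.0% and 57.3% in the punches. Mobp took 21.2% to 26.9% of them. These shares do not depend on how the libraries are scaled. The small members varied more: Opalin took 0.284% in wild type, 0.0736% in En1+/-, 0.788% contralateral and 0.361% infused, and 0.282% and 0.292% in the punches. Ermn took 1.85%, 3.47%, 2.45% and 3.62% captured and 1.40% and 1.61% punched. Cldn11 took 1.03%, 0.541%, 0.886% and 1.54% captured and 2.53% and 3.03% punched. Among the captured libraries the share of Opalin was lowest in En1+/- and highest contralateral.

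**Figure D2:**
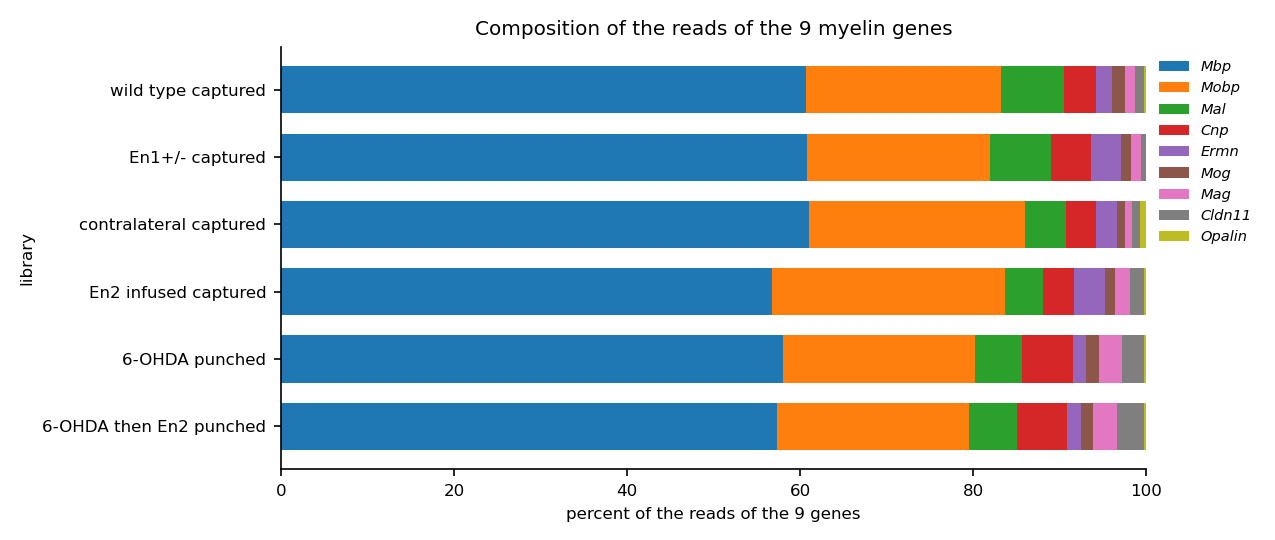
Share of each gene in the reads of the 9 myelin genes, in percent, with 1 bar per library. Mbp takes 56.8% to 61.0% and Mobp 21.2% to 26.9% of each bar, while Opalin (0.0736% to 0.788%), Cldn11 (0.541% to 3.03%), Mag (0.862% to 2.77%) and Ermn (1.40% to 3.62%) take small parts that differ among libraries.

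The En1+/- pair asks what the loss of 1 En1 copy does in these neurons, and in it the main myelin genes differed little while Opalin and Cldn11 were lower. Ratios are log2 of scaled reads in the second library over the first, so that 1 means 2 times as many, with 95% counting intervals. A gene passed the rule of size when 1 library had 20 reads or more, the ratio was 1 or more above or below 0 on the log2 scale, and the interval left out 0. Opalin was at -2.05 (-2.61 to -1.54), 4.13-fold lower in En1+/-, on 94 and 45 reads. Cldn11 was at -1.04 (-1.26 to -0.82), 2.05-fold lower. Ermn was at 0.80 (0.66 to 0.93), 1.74-fold higher and short of the rule. The other 6 lay between -0.36 (Mog) and 0.17 (Cnp), with Mbp at -0.11 (-0.14 to -0.09), Mobp at -0.20 (-0.24 to -0.16), Mal at -0.16 (-0.24 to -0.09) and Mag at -0.17 (-0.35 to 0.01). Members thus passed the rule in 2 of 9 cases, both lower, beside 34.3% of 11500 measured genes past it in either direction, 20.2% higher, 14.2% lower, and 24.3% in either direction among genes with at least 100 reads in 1 library. Counted in either direction, the share of members past the rule was thus near or below the background. Counted as lower alone, 2 of 9 was above the 14.2% of all genes, on few members.

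With all members, the median log2 ratio in the En1+/- pair was -0.17, with 7 of 9 below 0, beside a median of 0.10 over all measured genes, of which 45.1% were below 0. The sign of this median depended on the scaling: with library totals, which include mitochondrial ribosomal RNA and moved the median of all genes up by 0.59, it was 0.42. With those totals Ermn passed the rule as higher (1.39) and Cldn11 (-0.44) no longer passed, while Opalin stayed past it at -1.45. Relative to the summed reads of the 9 genes, Opalin was at -1.93 (-2.50 to -1.42), Cldn11 at -0.92 (-1.15 to -0.70) and Ermn at 0.91 (0.78 to 1.04), with the others between -0.25 and 0.29. The direction of Opalin, Cldn11 and Ermn was the same under each of these scalings.

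**Figure D3:**
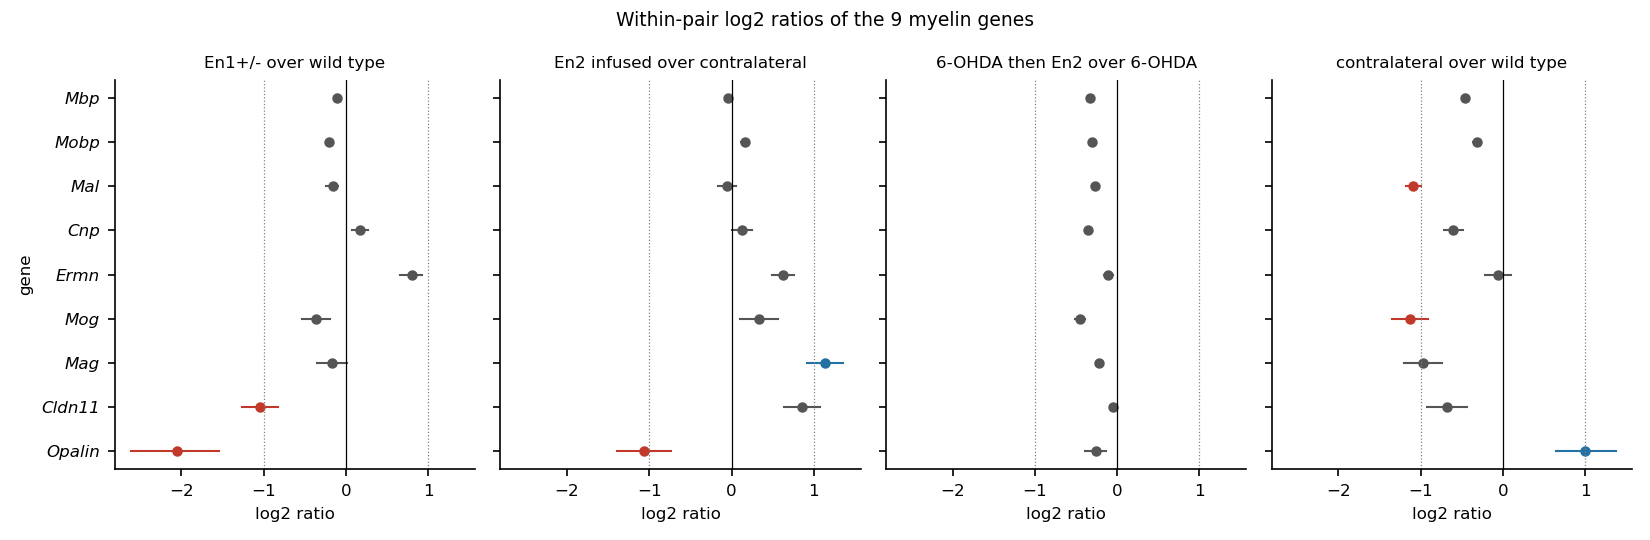
Log2 ratio of each gene within each pair, and between the contralateral and wild type captured libraries at right, with lines for 95% counting intervals. Dotted lines mark -1 and 1, red marks genes past the rule of size as lower and blue as higher. Values range from -2.05 to 0.80 and from -1.06 to 1.13 in the captured pairs and from -0.45 to -0.05 in the punched pair.

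The infusion pair asks what En2 protein supplied from outside does, and in it Mag was higher and Opalin lower on the infused side. Mag was at 1.13 (0.92 to 1.35), 2.19-fold higher, and Opalin at -1.06 (-1.39 to -0.74), 2.09-fold lower. Cldn11 at 0.86 (0.64 to 1.08), Ermn at 0.62 (0.49 to 0.76) and Mog at 0.33 (0.10 to 0.56) were short of the rule. Mbp was at -0.04 (-0.07 to -0.01), Mal at -0.05 (-0.16 to 0.05), Cnp at 0.13 (0.01 to 0.25) and Mobp at 0.16 (0.12 to 0.21). Members passed the rule in 2 of 9 cases, 1 in each direction, beside 37.7% of 11361 measured genes, 20.7% higher and 17% lower, and 26% of those with at least 100 reads, so the share of members was again near or below the background. The median of the 9 was 0.16 with 6 above 0, beside 0.08 over all genes, and with library totals it was 0.48, where Cldn11 passed as higher (1.18) and Opalin (-0.74) no longer passed. Relative to the summed reads of the 9 genes, Mag was at 1.07, Cldn11 at 0.80, Ermn at 0.56 and Opalin at -1.12.

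The spread between the captured libraries of wild type mice that were not from the infused side was described by contralateral over wild type. These libraries differ in age and in a pump that delivered En2 to the other side, and En2 itself had 20 and 62 reads (1.31, 0.59 to 2.14). This comparison shares the wild type library with the En1+/- pair and the contralateral library with the infusion pair. Mog was at -1.13 (2.19-fold lower contralateral) and Mal at -1.09 (2.12-fold lower), both past the rule as lower, and Opalin was at 1.00 (2.00-fold higher) and past it as higher. Mag was at -0.97, Cldn11 at -0.68, Cnp at -0.60, Mbp at -0.46, Mobp at -0.32 and Ermn at -0.06. Members passed in 3 of 9 cases, beside 27.5% of 10742 measured genes (14.1% higher and 13.4% lower) and 14.7% of those with at least 100 reads. The share of members was here above both, on few members. Their median was -0.60 beside 0.04 over all genes. In the En1+/- pair 3 of 9 members lay farther from 0 than between these libraries (Opalin, Cldn11 and Ermn), and in the infusion pair 4 of 9 did (Mag, Cldn11, Opalin and Ermn). For Opalin in the infusion pair the sizes were close, 1.06 against 1.00, as they were for Mag, 1.13 against 0.97, and in both the contralateral library was the one apart from wild type.

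The punched pair sets En2 with colominic acid against NaCl, both given after 6-OHDA, so En2 and colominic acid cannot be told apart. In it all 9 genes were slightly lower after En2 with colominic acid and close to each other. The log2 ratios were -0.45 for Mog (-0.51 to -0.39), -0.35 for Cnp, -0.33 for Mbp, -0.31 for Mobp, -0.27 for Mal, -0.26 for Opalin (-0.39 to -0.13), -0.22 for Mag, -0.11 for Ermn and -0.05 for Cldn11 (-0.09 to -0.01). Each interval lay below 0, and the range over members was 0.40, beside 2.85 in the En1+/- pair and 2.19 in the infusion pair. Mog was 1.37-fold lower, the most among the 9. None of the 9 passed the rule, beside 5.89% of 15747 measured genes, 4.66% higher and 1.23% lower, and 4.3% of those with at least 100 reads. The median of the 9 was -0.27, beside 0.01 over all genes, of which 48.4% were below 0. Relative to the summed reads of the 9, all lay between -0.14 (Mog) and 0.26 (Cldn11). Opalin, which differed most in the En1+/- pair, was at 0.05 on that scale.

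The authors' deposited tables, made without replicates, listed no feature of these genes with an adjusted p-value under 0.05. The lowest in the authors' deposited table of the punched pair was 0.423, for Mog, and in those of the captured pairs every feature of the 9 genes was listed at 1.0.

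Transcripts of a gene did not all have the same ratio in the captured pairs. For Mbp, 12 of 16 annotated transcripts start in the downstream part of the gene, which makes classical myelin basic protein, and an upstream transcript of the golli region ends 40.1 kb before the first downstream exon. The upstream transcript had 0, 0, 3 and 0 reads in wild type, En1+/-, contralateral and infused, beside 20070, 37154, 17958 and 19643 for the most-read transcript. Of the other transcripts, 2 with 36.4% and 41.9% of the reads of the most-read one had log2 ratios of 0.10 and 0.08 in the En1+/- pair and -0.22 and -0.18 in the infusion pair, beside -0.11 and -0.04 for the most-read one. For Mobp, the most-read transcript, with 6 exons, is annotated for nonsense-mediated decay and not as protein-coding. It was at -0.20 and 0.16 in the En1+/- and infusion pairs. Protein-coding Mobp transcripts had 9.0% to 19.8% of its reads, with ratios of -0.13 to 0.07 and 0.35 to 0.61. The highest in both pairs was a 4-exon transcript of 1536 bases. The most-read Cnp transcript is annotated as a processed transcript, and a protein-coding one with 97.8% of its reads was at 0.19 and 0.15. Captured values of Mobp and Cnp elsewhere rest on these most-read transcripts. For Mal, a 3-exon transcript of 486 bases was at -0.84 (-1.08 to -0.60) in the En1+/- pair, beside -0.16 (-0.24 to -0.09) for the 4-exon one, and at 0.00 in the infusion pair. A read can count for several transcripts, so these values share reads. The annotation places Cnp beside Dnajc7 and Ermn beside Galnt5 with overlap on the opposite strand. The same holds for Mbp with the pseudogene Rpl21-ps8 and for Mog with the RNA gene Gm22388. Mobp overlaps Gm38642 on the same strand, where counting by strand would not separate them. Whether counting used strand is not stated, so reads of these pairs of genes cannot be told apart where they overlap.

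**Figure D4:**
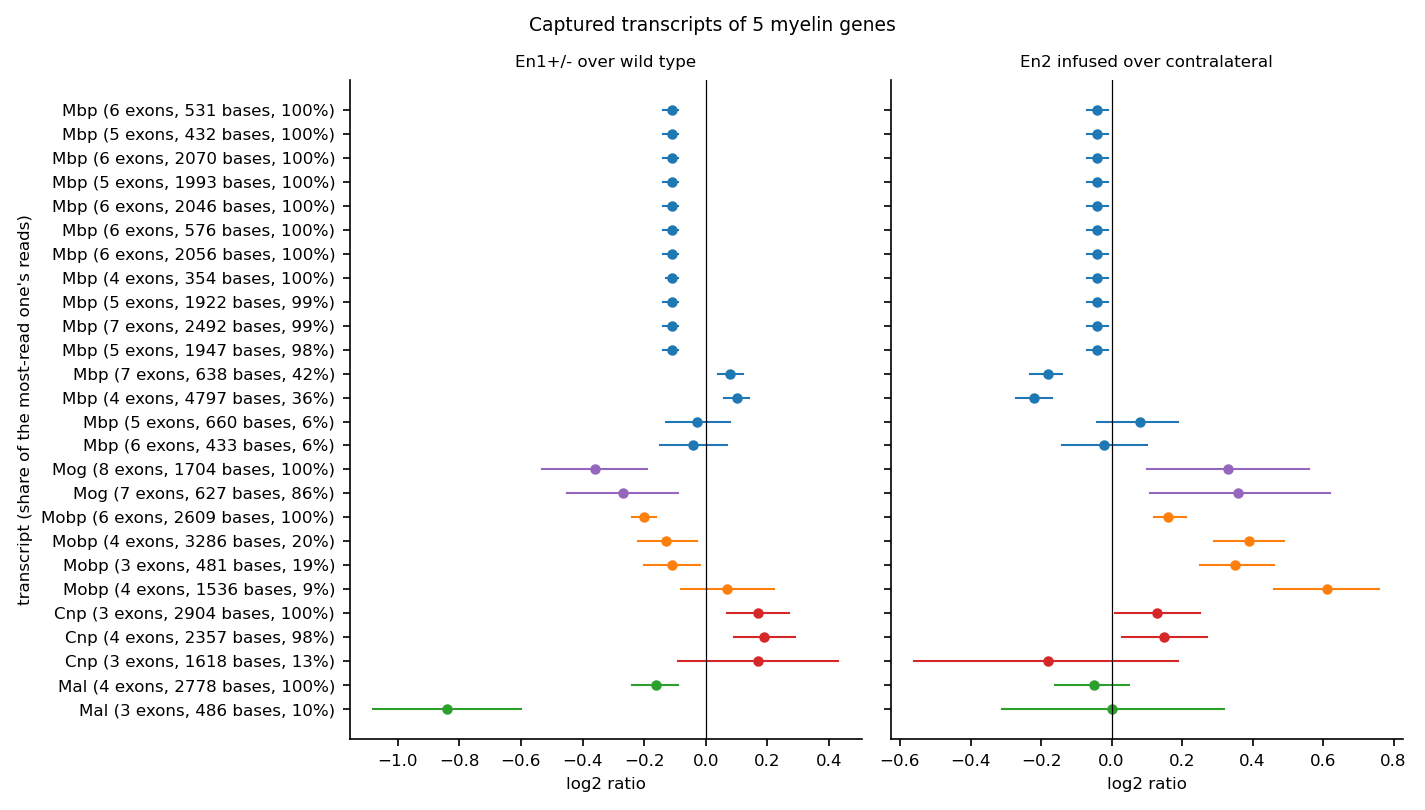
Log2 ratio of transcripts of Mbp, Mog, Mobp, Cnp and Mal in the 2 captured pairs, with 95% counting intervals; labels give exons, length in bases and reads as a percent of those of the most-read transcript. The 3-exon Mal transcript (-0.84) and the 4-exon Mobp transcript of 1536 bases (0.61) stand apart from the most-read transcripts of their genes.

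Other genes of the oligodendrocyte lineage, from 6 lists of 80 genes in all, lay mostly below 0 in the punched pair and on both sides of 0 in the captured pairs. In the punched pair 67 of 78 measured genes were below 0, beside 48.4% of all genes. The median of the 78 was -0.27, the same as that of the 9 members. Shares past the rule were 1.28% higher and 2.56% lower, beside 4.66% and 1.23% of all genes. The 3 genes past it included Adamts4, a proteoglycan-cleaving protease, higher at 2.07 on 844 and 4180 reads. Lower were Ptgds, a prostaglandin D synthase, at -1.14, and Tcf7l2, a transcription factor of newly formed oligodendrocytes, at -1.40. In the En1+/- pair 34 of 74 were below 0 with a median of 0.08, and 8 passed as higher and 6 as lower, shares of 10.8% and 8.11% beside the 20.2% and 14.2% of all genes. In the infusion pair 36 of 71 were below 0 with a median of -0.03, with 7 higher and 10 lower, shares of 9.86% and 14.1% beside the 20.7% and 17% of all genes.

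By role, the other compact myelin and membrane genes had a median of -0.09 in the En1+/- pair, with Pllp (plasmolipin) higher at 1.12 and Evi2a (-1.03) and Tmem125 (-1.09) lower among 12 measured. In the infusion pair Hapln2, a link protein of the node, was higher at 1.92 and was 1 of 11 past the rule. Contralateral over wild type Hapln2 was at -1.04, so the contralateral library was the low one. In that comparison Tmem125 was at -1.94, so for it wild type was the high library. Among 10 junction and adhesion genes, Gjb1, a connexin of myelin, was higher in En1+/- (1.36), and on the infused side Nfasc was higher (1.05), the paranodal and nodal adhesion protein that neurons also express. S1pr5, a sphingosine phosphate receptor, was lower there (-2.92) on 57 and 8 reads, and so was Jam3 (-1.39). Among 13 genes of myelin lipid synthesis, Elovl1, which elongates very long fatty acids, was lower in both captured pairs, at -1.24 and -1.44. Among 22 cytosolic and cytoskeletal genes of myelinating oligodendrocytes, 21 were measured in each captured pair, with 1 higher and 1 lower in the En1+/- pair and 3 higher and 3 lower in the infusion pair, beside 34.3% and 37.7% of all genes past the rule in either direction. Klk6, a secreted protease, was lower in both (-1.09 and -1.23), and Nipal4 was higher in both (1.34 and 3.17), on 28 and 143 and on 5 and 55 reads; contralateral over wild type it was at -2.66, so the contralateral library was the low one. In the punched pair no gene of the membrane, junction and lipid lists passed, and the medians were -0.27 for the membrane list and -0.12 for the junction list.

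The transcription factors that oligodendrocytes depend on were measured at low counts in captured libraries. Myrf had 143 and 485 reads in the En1+/- pair (0.76, 0.49 to 1.04), 244 and 347 in the infusion pair (0.34), and a ratio of -0.02 (-0.07 to 0.04) in the punched pair on 4444 and 5165 reads. Sox10 was at 0.33 (-0.03 to 0.70), 0.90 (0.65 to 1.16) and 0.15 (-0.00 to 0.30) in the same order. Neither passed the rule in any of the 3 pairs. Of the factors measured, 3 of 12 were higher and 1 lower in the En1+/- pair, 1 of 11 higher and 1 lower in the infusion pair, and 1 of 12 lower in the punched pair. Over all genes 20.2% were higher and 14.2% lower in the En1+/- pair, 20.7% and 17% in the infusion pair, and 1.23% lower in the punched pair. Nkx2-2, an early lineage factor, passed as higher in En1+/- (3.18) on 5 and 96 reads, and Nkx6-2, a factor of mature oligodendrocytes, as lower (-1.29) on 109 and 89. Contralateral over wild type Nkx6-2 was at -1.33, so wild type was the high library. Among precursor markers, Pdgfra, the growth factor receptor of these cells, was higher in En1+/- at 1.84 (1.54 to 2.16) on 100 and 718 reads, and stood at 0.21 and -0.32 in the infusion and punched pairs. Cspg4, another defining precursor marker, was at 0.37 (-0.27 to 1.04) in the En1+/- pair. Beside 20.2% higher and 14.2% lower over all genes, precursor genes passed as higher in 2 cases and as lower in 1 of 7 in the En1+/- pair, and none passed among 6 in the infusion and 8 in the punched pair. Of the newly formed oligodendrocyte list, 2 of 8 were higher and 1 lower in En1+/-. Higher were Enpp6, a choline phosphodiesterase of these cells, at 1.29 and Bmp4 on 0 and 95 reads, and Neu4 was lower at -2.03. Bmp4 and Neu4 also stand in the precursor list, so their calls were counted in both lists. On the infused side Enpp6 was the 1 of 7 lower, at -1.69.

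**Figure D5:**
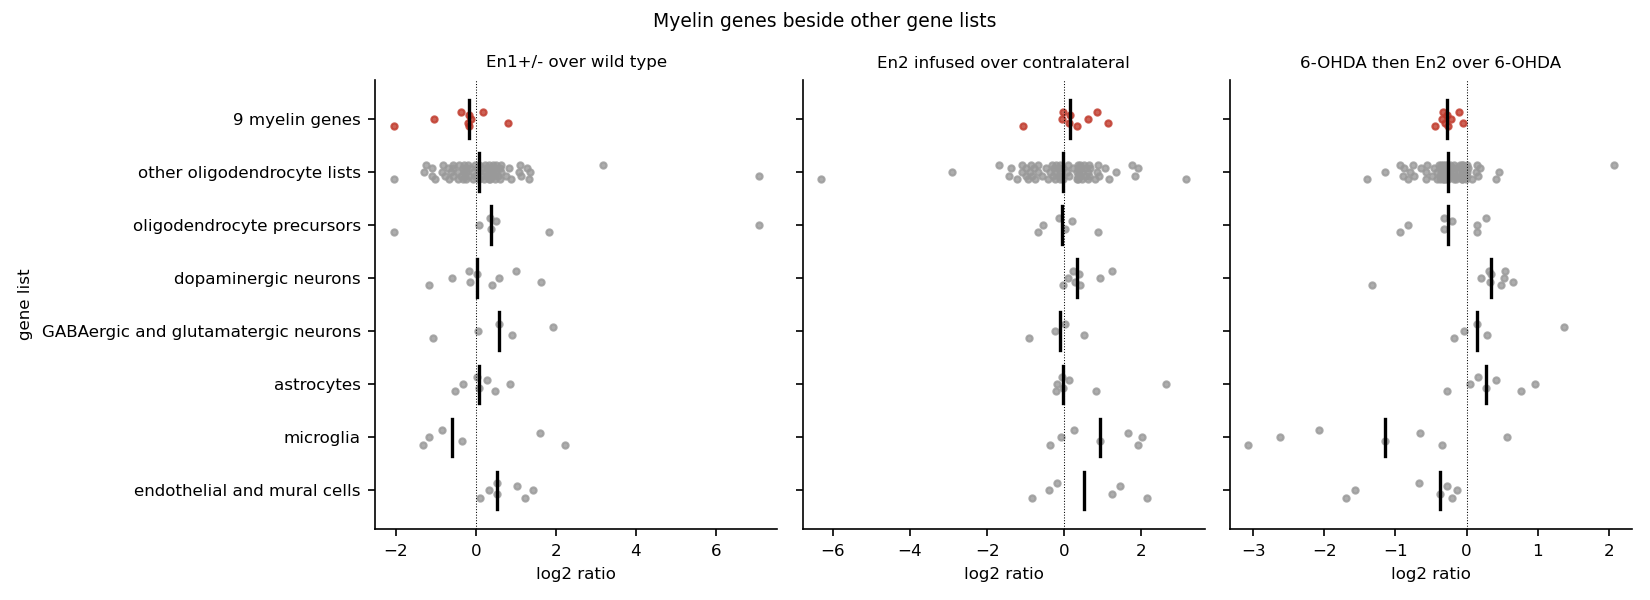
Log2 ratio of every measured gene of each list (points) and the median of the list (black bar) in the 3 pairs; the horizontal scales differ between panels. The 9 myelin genes (red) and the other oligodendrocyte lists both have a median of -0.27 in the punched pair, against -0.17 and 0.08 in the En1+/- pair. The points near 7 and -6 are Bmp4 and Carns1, each with 0 reads in 1 library, and depend on the 0.5 added to the reads.

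Markers of other cells differed between the same libraries, and their part in the results on myelin genes was not tested. Of all measured genes 34.3%, 37.7% and 5.89% passed the rule in the En1+/-, infusion and punched pairs, for comparison with the marker counts. In the En1+/- pair the dopaminergic sum was 8885 CPM in wild type and 7622 in En1+/-, and 1 of 9 measured markers passed the rule in each direction. The median log2 ratio of these 9 markers was 0.02, with 5 above 0 and 4 below. The astrocyte sums were 5161 and 5049 CPM with none of 7 past it, and the microglial sums 276 and 249 CPM with 2 higher and 2 lower of 6. Endothelial and mural markers were higher in 3 of 7 (805 and 915 CPM), and 1 of 5 markers of other neurons passed in each direction. In the infusion pair the astrocyte sums were 6959 and 7487 CPM with 1 of 7 higher. This was Gfap, the filament protein of reactive astrocytes, at 2.64 on 155 and 1092 reads. The median of the 7 was -0.04, with 3 above 0 and 4 below. Microglial sums were 274 and 524 CPM with 3 of 7 higher, and endothelial and mural sums 811 and 628 CPM with 3 of 6 higher. Dopaminergic sums were 9068 and 9964 CPM with 1 of 8 higher, and no marker of other neurons passed among 4 (1176 and 838 CPM).

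In the punched pair the dopaminergic sum was 453 CPM after 6-OHDA and 603 after 6-OHDA then En2. The median of its 9 measured markers was 0.35, with 8 above 0 and 1 below. That 1 marker, Foxa2, passed the rule as lower, and none passed as higher. The astrocyte sums were 5084 and 6299 CPM, with Aqp4, the astrocyte water channel, at 0.96 and Gfap at 0.76. None of the 7 astrocyte markers passed the rule, and 6 were above 0. The microglial sums were 183 and 71.4 CPM with 4 of 7 lower, among them Cx3cr1 at -2.63 on 875 and 166 reads. Endothelial and mural sums were 386 and 279 CPM with 2 of 7 lower, and markers of other neurons 1741 and 1764 CPM with 1 of 5 higher. Markers of Schwann cells, the myelinating cells of peripheral nerve, were close to absent: Pmp2 and Prx had 0 reads in all 4 captured libraries, and in the punches Pmp2 had 0 reads and Prx 16 and 22. Of that list only Scn7a, a sodium channel gene, passed the rule in the 3 pairs, with 21 reads contralateral and 0 on the infused side.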

How the data were processed

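Total RNA of SNpc was sequenced after extraction with a lipid tissue kit and preparation by Illumina protocols, per the labels' protocols. Bowtie, HTSeq and DESeq 1.8.3 stand in the submitters' processing notes, with the build mm10 and without roles, while a column header of the punched comparison table names mm9. The authors deposited counts per transcript for the captured libraries, where a read can count for several transcripts, and counts per gene for the punched libraries. Strand use in counting is not stated. The authors' deposited comparison tables hold log2 fold changes (captured pairs), linear ratios (punched pair) and p-values made without replicates, and 6 columns of means per library in them were not used. Captured transcripts without a gene identifier (2.93% to 4.78% of counts) were left out, and 4 counts that stand 1 column to the right in the punched files were moved back.

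Each captured gene was represented by its most-read transcript over the 4 captured libraries, except in levels per kilobase. Those used the longest transcript with at least 95% of the reads of the most-read one, for Mbp one of 2492 bases. Punched levels per kilobase used the union of a gene's exons, 8469 bases for Mbp, so the lengths differ between the kinds of library. Within a pair, counts were divided by median-of-ratios size factors, 0.5 was added, and the log2 ratio was taken with an exact 95% Clopper-Pearson counting interval on a library's share of a gene's reads. CPM intervals and shares use exact counting intervals too. Reads carry no molecular identifiers, so intervals cover counting error only. The rule of size asks for 20 reads in 1 library, a log2 ratio of 1 in size and an interval without 0. Groups hold 1 library, so no test was made. Positions and lengths come from GENCODE M21 (GRCm38) and promoters from RefSeq (GRCm38.p6). Alternatives were library totals, totals outside mitochondrial and ribosomal RNA genes, edgeR's TMM factors on the deposited counts, summed member reads, no minimum or 100 reads, 1 or 5 added reads, and summed transcripts. Scaling by 80 other oligodendrocyte genes and the median without Opalin were added after seeing the data. Python 3.11.15, numpy 2.4.6, scipy 1.17.1, pandas 2.3.3, R 4.3.3 and edgeR 4.0.16 were used, and the steps were tested on simulated data. Named were all members, En1, defining markers, and per pair up to 2 genes with the highest and 2 with the lowest ratios of each of the 13 other lists; Myrf and Sox10 were added where outside it. Some genes of the lists are not reported here by name. The members, the 14 lists of 134 genes and this rule were chosen with earlier results of these data known.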

Additional observations from a re-analysis of the deposited data

How the results depend on the processing

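No called member reversed direction under any alternative run. In the En1+/- pair the median log2 ratio of the 9 genes was 0.42 with library totals and -0.29 with totals outside mitochondrial and ribosomal RNA, and in the infusion pair 0.48, 0.06 and, with summed transcripts, 0.26; in the punched pair it moved by less than its spread. Those totals moved the median of all captured genes by 0.59 and 0.32, and by -0.12 and -0.10. With library totals 4322 genes were higher and 899 lower in the En1+/- pair (82.8% of calls higher, against 58.7%). With no minimum count, 2841, 3099 and 296 genes were lower in the En1+/-, infusion and punched pairs. With a minimum of 100 reads the counts higher and lower were 1266 and 310, 1001 and 470, and 484 and 58, and 1 member passed in the En1+/- pair, since Opalin has fewer reads there. With the summed member reads Cldn11 did not pass in the En1+/- pair; TMM, 1 or 5 added reads and the other oligodendrocyte genes left the members past the rule as they were. Without Opalin the medians were -0.16, 0.24 and -0.29. No paired analysis was possible because each group holds 1 library, and no library could be left out for the same reason. Opalin, on 45 to 232 captured reads, is limited most by depth.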
